A study of Mus musculus with 72 samples.

Results

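The collagen genes of the mouse were followed through gastrocnemius muscle, lung, heart, liver, and white fat. Members were all protein-coding genes whose symbol reads Col, digits, a, digits, and whose mean normalized count was above 5 in at least 1 tissue. Of 55401 genes in the count tables, 44 had such a symbol and 42 met the level rule. *Col9a2* and *Col10a1* did not meet it. By chain type, 11 members are fibrillar, 8 belong to basement membranes (6 type IV chains plus *Col15a1* and *Col18a1*), and 23 are of other types. The last group holds 6 type VI chains, 8 chains that bind to fibril surfaces (FACIT collagens), 4 transmembrane chains, the network chains *Col8a1* and *Col8a2*, the anchoring fibril chain *Col7a1*, and *Col26a1* and *Col28a1*.

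Collagens are secreted or membrane-bound proteins built from 3 chains wound into a triple helix. Fibrillar types I, III, and V form the load-bearing fibrils of muscle connective tissue and tendon and are made mostly by fibroblasts, whereas type IV chains form the sheet that surrounds each muscle fiber and capillary, and types XV and XVIII sit at the border of that sheet. Type VI filaments link the sheet to the fibrils, type XXII marks the junction of fiber and tendon, and the transmembrane types XIII and XXV act at the junction of nerve and muscle.

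All mice were males. The WT mice were littermates, the KO mice lacked *Bmal1* (symbol *Arntl*) in every cell from conception, and the KO+AAV mice were KO mice injected as pups with an AAV9 vector that carries HA-tagged *Bmal1* behind CK6, a muscle-specific promoter, so that their cells outside muscle stayed without *Bmal1*. Gastrocnemius was measured at 10 weeks (6 WT, 6 KO, and 7 KO+AAV libraries) and at 40 weeks (5 of each). In a separate experiment at 10 weeks, 3 libraries of KO mice given the same type of vector with GFP (KO+GFP) were set against 3 control KO libraries. Lung, heart, liver, and white fat were measured at 40 weeks in 4 libraries of KO and 4 of KO+AAV mice, with no WT libraries. The labels do not say whether each library is a separate animal, so *P* values measure the spread between these libraries.

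Each library held between 6754312 and 50755829 reads counted on genes. At 10 weeks the main experiment used 2 sequencing sites, ICBR and Novogene, whereas all further gastrocnemius libraries were read at Novogene and those of lung, heart, liver, and white fat at ICBR. Between sites 3726 of 16199 genes (23%) differed in gastrocnemius, and of the 36 members tested there only *Col7a1* was called (Novogene minus ICBR, -0.71 on the log2 scale, adjusted *P* = 0.0146). Estimates not called reached -0.66 for *Col3a1* and -0.63 for *Col14a1*, so the other members are not shown to be alike between sites. All 7 genes of the skeletal muscle fiber list were detected in every gastrocnemius library. *Arntl* reads ranged from 402 to 634 normalized counts in 10-week WT muscle and from 196 to 296 in 10-week KO muscle, a count over the whole gene that does not isolate the deleted part. In 10-week KO+AAV muscle *Arntl* ranged from 169 to 281, which overlaps KO, so this count does not check the KO+AAV label. The library labelled KO replicate 2 at 40 weeks held 1039, above every WT library, and each 40-week result below is also given without it where that changes a count by more than 1.5 times.

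Some libraries stood apart in markers of cell types that make collagen. KO+AAV replicate 4 at 10 weeks had summed tendon cell markers of 1247 CPM (counts scaled alike to the total of each library), where the other 18 libraries at that age reached at most 533, and it also led its group in fibroblast markers (945). At 40 weeks KO+AAV replicate 2 was lowest in its group for both lists, with 82.4 for tendon and 229.5 for fibroblast markers. In KO heart replicate 2 hepatocyte markers summed to 29608 CPM, and in KO white fat replicate 2 epididymis markers summed to 28819. In these bulk samples, fewer cells of a type and less RNA per cell cannot be told apart.

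Which collagens each tissue carried was compared first, in RPKM (reads per kilobase of exon, scaled to the library total as CPM are), so that genes of different length can be set side by side. White fat had the highest summed level of the family (mean of 1138 over 8 libraries), followed by lung (510), heart (232), liver (212), and gastrocnemius of the same age, 40 weeks (105 over 15 libraries). Over all 34 gastrocnemius libraries of both ages the mean was 207, with KO+AAV replicate 4 at 10 weeks the highest at 1502. The family took up 0.802% of reads in white fat and 0.0822% in 40-week gastrocnemius (0.168% over both ages). By median level at 40 weeks, 17 of 42 members were highest in lung, 15 in white fat, 8 in gastrocnemius, 2 in liver, and none in heart. With both ages of gastrocnemius, lung had 18 and gastrocnemius 7, since *Col7a1* then ranked just below lung. The 40-week gastrocnemius values pool 5 WT, 5 KO, and 5 KO+AAV libraries, with mean summed levels of 93.8, 99.1, and 122.7. The other tissues had no WT libraries, so tissue and genotype are mixed in this comparison. Lung, heart, liver, and white fat were all sequenced at ICBR and 40-week gastrocnemius at Novogene, so tissue and site cannot be told apart where 40-week gastrocnemius is set against the others. Between sites 1 of the 36 members tested in gastrocnemius differed by the test, *Col7a1*, which does not show the others to be alike between sites.

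**Figure D1:**
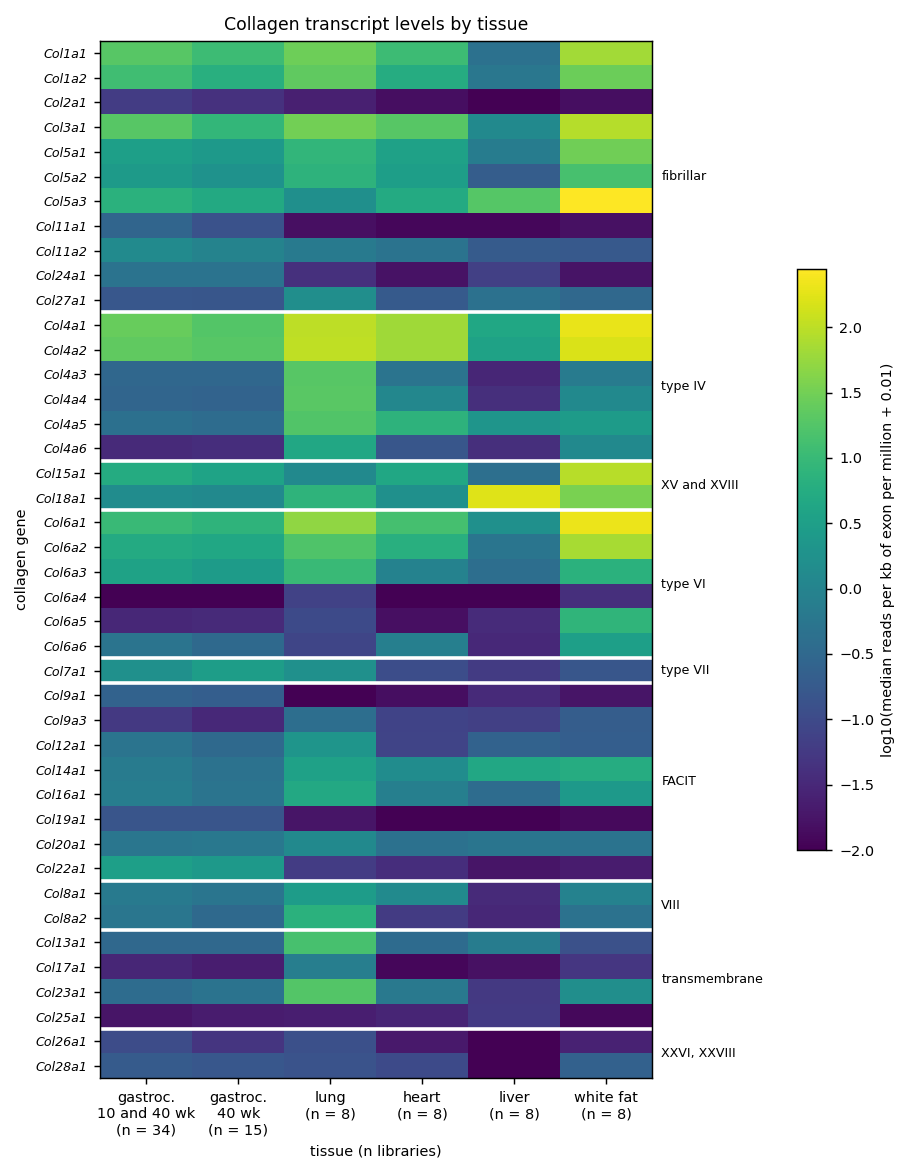
Heat map of the median level of each of the 42 collagen genes (rows, grouped by type) in gastrocnemius of both ages, 40-week gastrocnemius, and 4 other tissues (columns), colored by log10 of RPKM plus 0.01. *Col4a1* and *Col4a2* are bright in lung, heart, and white fat, and the other type IV chains are highest in lung. *Col18a1* stands out in liver at 172, and *Col22a1* in 40-week gastrocnemius at 2.46.

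The members that were highest in gastrocnemius had median levels of at most 3.03 there. The 8 members with their highest median in 40-week gastrocnemius were *Col2a1*, *Col7a1*, *Col9a1*, *Col11a1*, *Col11a2*, *Col19a1*, *Col22a1*, and *Col24a1*. These medians include WT libraries, in which *Col7a1*, *Col9a1*, *Col11a2*, and *Col24a1* were called higher than in KO at that age, as given below. *Col22a1*, a FACIT chain of the myotendinous junction, had a median level of 2.46 in 40-week gastrocnemius and 0.0527 in lung, the next tissue. *Col24a1*, a minor fibrillar chain, had a median level of 0.482 in 40-week gastrocnemius and 0.0589 in liver. By level, however, the leading muscle collagens at 40 weeks were *Col4a2* (19.9), *Col4a1* (17.8), *Col1a1* (11.04), and *Col3a1* (8.64), which are the chains of the basement membrane sheet and of ordinary fibrils. *Col25a1*, a transmembrane collagen needed for motor nerve entry, was near the limit of detection in muscle and ranged from 0 to 7.49 (median 1.19) normalized counts in 10-week WT libraries.

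The other tissues had profiles of their own. In lung *Col4a1* and *Col4a2* stood at 99.99 and 105, and *Col4a3*, *Col4a4*, and *Col4a5*, the chains of the alveolar and glomerular sheet, stood at 19.1, 20.1, and 17.5. In no other tissue did the median of *Col4a3* exceed 0.692 (white fat). The transmembrane chains *Col13a1* and *Col23a1* were also highest in lung, at 14.3 and 17.7. Liver was dominated by *Col18a1*, the source of endostatin, with a median level of 172 (range 151 to 180.2). White fat carried *Col5a3* at 278 and *Col6a1* at 210.02, together with *Col4a1* at 202. *Col6a5*, a type VI chain, had a median of 8.12 in white fat and at most 0.0887 elsewhere.

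When the members were grouped by type, the fibrillar chains made up 37.4% of the summed collagen level in white fat and 35.6% in 40-week gastrocnemius, with overlapping ranges, 21.4% in heart, 19.4% in lung, and 10.7% in liver. Basement membrane chains made up 84.96% in liver, of which *Col15a1* and *Col18a1* together gave 80.2%, and 66.3% in heart, 54.3% in lung, 40.8% in 40-week gastrocnemius, and 36.3% in white fat. Over both ages of gastrocnemius the fibrillar share was 43.9% and the basement membrane share 35.5%, so the order of gastrocnemius and white fat turned with the age mix for both types. The gastrocnemius shares also pool WT with KO and KO+AAV libraries, whereas the other tissues had no WT libraries. Other types reached 26.4% in lung and 26.3% in white fat but 4.34% in liver. Heart shares include KO replicate 2, in which *Col18a1* had an RPKM of 104 against 1.45 to 3.42 in the other 7 heart libraries.

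**Figure D2:**
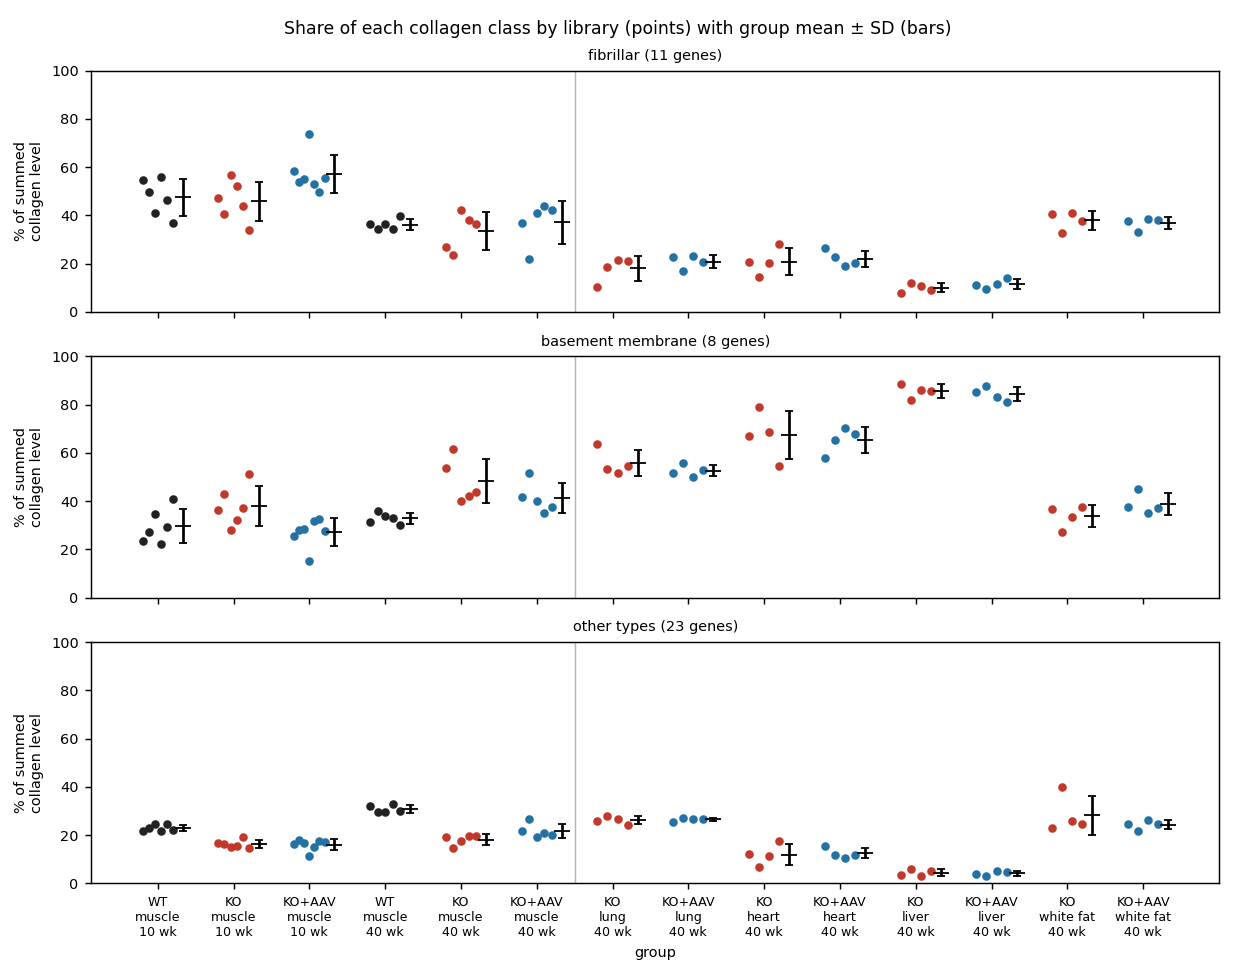
Share of summed collagen level (percent, y axis) held by fibrillar, basement membrane, and other chains in each library (points), with the mean and SD, for 14 groups of gastrocnemius and other tissues. At both ages the share of other types lies higher in every WT gastrocnemius library (21.7% to 24.5% at 10 weeks) than in every KO library (14.8% to 19.2%).

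Within gastrocnemius the makeup varied with genotype and age. The share of other types was 22.98% ± 1.27 (SD, *n* = 6) in 10-week WT muscle, 16.3% ± 1.58 (*n* = 6) in KO, and 15.9% ± 2.28 (*n* = 7) in KO+AAV. At 40 weeks it was 30.9% ± 1.502 in WT, against 18.2% ± 2.23 in KO and 21.6% ± 2.91 in KO+AAV (*n* = 5 each). The WT libraries lay above all KO and KO+AAV libraries at each age. Basement membrane chains made up 32.95% of the total in 40-week WT muscle and 48.3% in 40-week KO muscle, and fibrillar chains 36.2% and 33.5%. The share of fibrillar chains was highest in 10-week KO+AAV muscle, at 57.0%, where it ranged up to 73.8%, the value of replicate 4. These shares describe the libraries and were not tested.

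Chains that form 1 molecule were compared by the ratio of their reads. The 2 most abundant basement membrane chains, *Col4a1* and *Col4a2*, had a read ratio of 1.23 ± 0.14 (SD) over the 34 gastrocnemius libraries (1.15 ± 0.15 over the 15 at 40 weeks), 1.13 ± 0.06 in lung, 1.14 ± 0.04 in heart, and 1.41 ± 0.09 in white fat. The ratio of *Col1a1* to *Col1a2*, the chains of type I collagen, was 0.81 ± 0.13 in gastrocnemius and 0.43 ± 0.07 in liver. At 40 weeks it ranged from 0.53 to 0.70 in WT, 0.86 to 1.09 in KO, and 0.82 to 0.91 in KO+AAV muscle. Read ratios are not corrected for length and do not rank the chains. Mean RPKM in 40-week gastrocnemius was 10.8 for *Col1a1* and 6.96 for *Col1a2*. The spread between libraries was widest for fibrillar chains in gastrocnemius and lung, but not in heart, liver, or white fat. Among members with a mean above 50 in gastrocnemius, the median residual SD on the log2 scale was 0.82 for 9 fibrillar chains, 0.48 for 6 basement membrane chains, and 0.67 for 11 other chains, against 0.24 over all such genes. In lung these medians were 0.31, 0.15, and 0.17. In the same order they were 0.64, 0.64, and 0.64 in heart, 0.55, 0.45, and 0.59 in liver, and 0.77, 0.82, and 1.03 in white fat.

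The first comparison of gastrocnemius asked how muscle without *Bmal1* differs from WT at 10 weeks, with limma on log2(normalized count + 1) and *P* values adjusted by the Benjamini-Hochberg method over all 16199 genes tested. Of the 42 members, 36 passed the filter on low counts. At 10 weeks *Col7a1*, *Col9a1*, and *Col24a1* were higher in WT than in KO muscle (3 of 36, where 4.26% of all genes tested were higher), and *Col4a1*, *Col4a2*, and *Col26a1* were lower (3 of 36, against 3.74%). edgeR and DESeq2 each also called 6 members. At counts this small the number of calls does not set the family apart from all genes. The median WT minus KO difference of the 36 was -0.03, next to -0.01 over all genes. By type the medians were -0.02 for fibrillar, -0.27 for basement membrane, and 0.18 for other chains, and all 7 basement membrane members tested had a lower estimate in WT.

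*Col7a1*, the chain of the anchoring fibrils that fasten epithelial basement membranes, ranged in WT libraries from 263 to 738 (median 682) normalized counts. In KO libraries it ranged from 58.1 to 197 (median 126), and in KO+AAV libraries from 69.97 to 317 (median 166). The WT and KO ranges did not overlap, and the lowest WT library was below the highest KO+AAV library. The log2 difference between WT and KO was 2.22 ± 0.28 (SE), adjusted *P* = 1.03e-06, a 4.65-fold higher level. It was 2.49 in the Novogene libraries alone and 1.95 in the ICBR libraries alone, and passed the test at each site.

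*Col9a1*, a FACIT chain best known from cartilage, ranged in WT libraries from 41.2 to 181 (median 101). In KO libraries it ranged from 1.57 to 36.4 (median 13.9), again with no overlap. The log2 difference was 3.01 ± 0.65 (SE), adjusted *P* = 0.00238. *Col24a1* ranged from 84.7 to 114 (median 91.1) in WT and from 24.6 to 72.9 (median 38.8) in KO, and every WT library was above every KO library (log2 difference 1.18 ± 0.35 (SE), adjusted *P* = 0.0311). Within single sites the differences of *Col9a1* (3.26 and 2.75) and *Col24a1* (1.52 and 0.84) kept their direction without passing the test.

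*Col4a1* and *Col4a2* encode the pair of chains that make up the common type IV network, and both were lower in WT. *Col4a2* ranged from 1734 to 2199.7 (median 1985) in WT and from 2857 to 4544 (median 3433) in KO, with no overlap (log2 difference -0.83 ± 0.18 (SE), adjusted *P* = 0.00207). *Col4a1* ranged from 2284 to 3098 (median 2595) in WT and from 3014 to 5988 (median 4113) in KO, and the groups overlapped at 1 end (log2 difference -0.68 ± 0.22 (SE), adjusted *P* = 0.0486). Endothelial cells, a main source of type IV collagen, had summed markers of 205 to 332 CPM in WT and 275 to 386 in KO, and 1 of their 7 markers was lower in WT by the test. The part of cell content in the type IV difference was not tested. *Col26a1*, a little-studied collagen of low abundance, ranged from 3.03 to 20.7 (median 8.38) in WT and from 19.97 to 44.5 (median 29.9) in KO, with overlap at 1 end (log2 difference -1.63 ± 0.51 (SE), adjusted *P* = 0.0406). In Novogene and ICBR libraries alone, *Col4a1* (-0.69 and -0.66) and *Col26a1* (-2.04 and -1.22) kept their direction without passing the test. *Col4a2* (-0.83 at each) passed at Novogene only. Neither *Col4a1* nor *Col26a1* stayed called with no filter or with no site term.

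**Figure D3:**
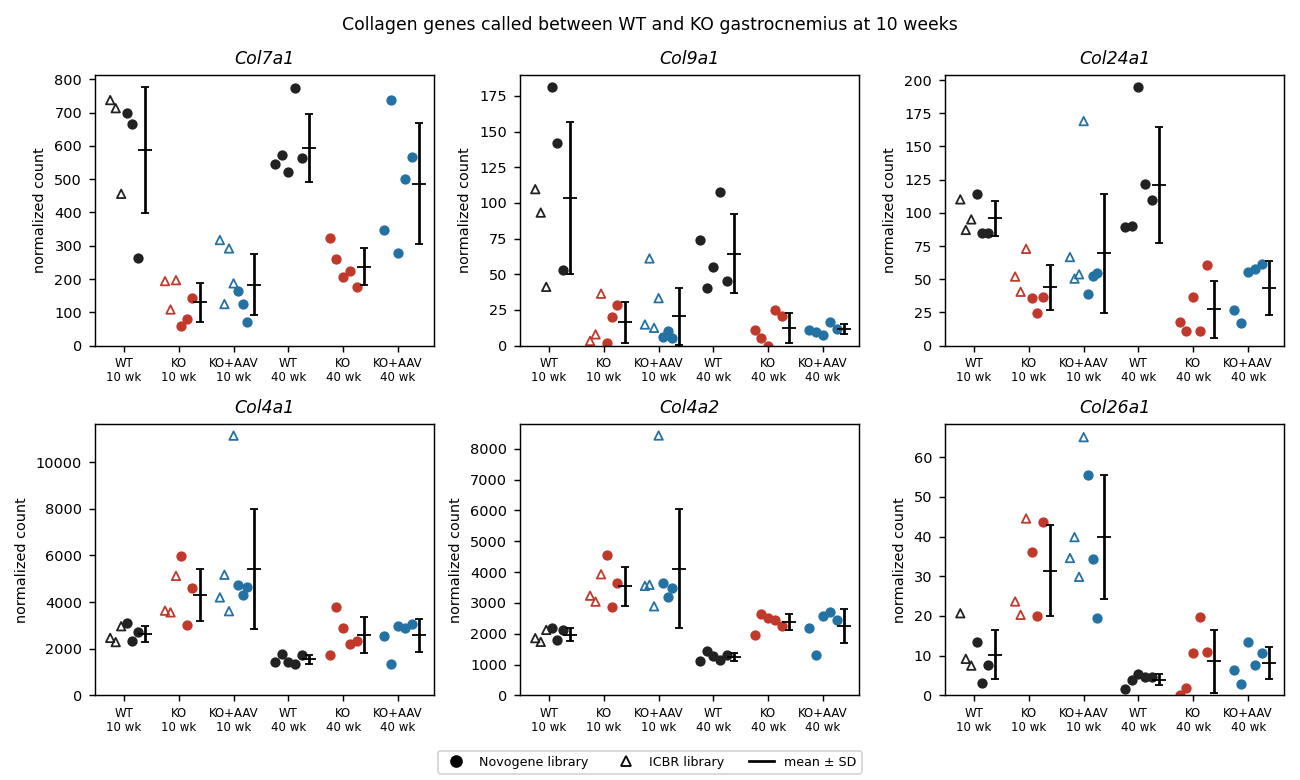
Normalized counts per library (y axis) of *Col7a1*, *Col9a1*, *Col24a1*, *Col4a1*, *Col4a2*, and *Col26a1* in the 6 gastrocnemius groups, with open triangles for ICBR, filled circles for Novogene, and lines for the mean and SD. *Col7a1*, *Col9a1*, and *Col24a1* are higher in WT than in KO at both ages, and *Col4a2* in WT lies below KO in every library at both ages.

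The promoters of 4 of these genes are shown because the pair that was lower in WT shares a start region and the genes that were higher do not. *Col4a1* and *Col4a2* lie head to head on mouse chromosome 8 and their start sites are 21 bases apart, and their exons share 0.295% of bases on opposite strands, so reads in that stretch cannot be told apart without strand. Each window runs from 250 bases before to 50 bases after the RefSeq start site in GRCm38.p6, on the strand of the gene. The windows are chr8:11312777-11313076 (minus strand) for *Col4a1*, chr8:11312555-11312854 (plus) for *Col4a2*, chr9:108953336-108953635 (plus) for *Col7a1*, and chr3:145292222-145292521 (plus) for *Col24a1*. In the first pair capitals mark the 78 bases that both windows hold. In the others capitals mark a GC box, GGGCGG on either strand, of which *Col7a1* has 1 and *Col24a1* none.
Col4a1: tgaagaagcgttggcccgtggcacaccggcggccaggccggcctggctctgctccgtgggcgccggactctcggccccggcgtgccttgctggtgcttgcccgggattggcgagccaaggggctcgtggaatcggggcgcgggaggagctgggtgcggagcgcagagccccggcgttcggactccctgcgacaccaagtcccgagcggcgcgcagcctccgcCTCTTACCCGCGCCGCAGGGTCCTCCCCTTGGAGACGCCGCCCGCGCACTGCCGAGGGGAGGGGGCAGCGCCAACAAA
Col4a2: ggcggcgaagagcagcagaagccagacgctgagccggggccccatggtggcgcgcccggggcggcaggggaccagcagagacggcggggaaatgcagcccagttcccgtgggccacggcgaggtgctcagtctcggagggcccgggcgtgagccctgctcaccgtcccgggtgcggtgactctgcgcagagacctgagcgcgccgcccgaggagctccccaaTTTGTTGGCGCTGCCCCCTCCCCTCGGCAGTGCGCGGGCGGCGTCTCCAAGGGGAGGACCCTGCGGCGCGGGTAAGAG
Col7a1: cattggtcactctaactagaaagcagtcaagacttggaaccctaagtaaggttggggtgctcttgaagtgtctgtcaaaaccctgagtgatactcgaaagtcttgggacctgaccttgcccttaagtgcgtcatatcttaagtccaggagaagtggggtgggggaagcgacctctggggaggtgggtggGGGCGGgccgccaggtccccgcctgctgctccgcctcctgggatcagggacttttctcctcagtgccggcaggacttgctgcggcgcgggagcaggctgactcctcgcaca
Col24a1: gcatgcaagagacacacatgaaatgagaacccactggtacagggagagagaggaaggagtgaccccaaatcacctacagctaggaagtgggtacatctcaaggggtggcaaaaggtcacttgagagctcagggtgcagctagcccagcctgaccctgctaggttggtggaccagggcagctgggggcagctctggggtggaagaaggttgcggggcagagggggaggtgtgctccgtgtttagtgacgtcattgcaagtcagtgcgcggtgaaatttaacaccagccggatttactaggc

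RefSeq windows were matched for 33 of the 42 members, 36 windows in all. The E-box CACGTG, the motif bound by BMAL1 with its partner CLOCK, was in 0 of 36 windows and in 7.15% of 32851 windows of the same length. The D-box TTATGTAA was in 0 of 36 and in 0.938% of all. The GC box GGGCGG was in 22 of 36 windows (61.1%), from 21 members, against 35.7% of all windows. Both strands were searched. These matches describe letters in short windows only.

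The question of what remained different from WT after the muscle vector was addressed by WT against KO+AAV at 10 weeks, which shares its WT libraries with the comparison above. In it *Col7a1* (1.81 ± 0.27 (SE), adjusted *P* = 3.85e-05) and *Col9a1* (2.57 ± 0.63 (SE), adjusted *P* = 0.011) were higher in WT (2 of 36, where 2.94% of all genes were). *Col4a2* (-0.97 ± 0.17 (SE), adjusted *P* = 0.000413), *Col4a1* (-0.94 ± 0.21 (SE), adjusted *P* = 0.00492), and *Col26a1* (-1.94 ± 0.49 (SE), adjusted *P* = 0.0142) were lower (3 of 36, against 2.21%). The median over members was -0.58, next to -0.02 over all genes, with -0.73 for fibrillar, -0.58 for basement membrane, and -0.46 for other chains. Without KO+AAV replicate 4, whose tendon markers were highest, 5 members were still called and the median was -0.33. edgeR called 8 members and DESeq2 called 10.

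The main fibrillar chains had wide ranges in this comparison. *Col1a1* ranged from 1426 to 5804 (median 2437) in WT, from 1803 to 7189.8 (median 2745) in KO, and from 4011 to 49979.8 (median 5266) in KO+AAV. *Col1a2* ranged from 1685 to 8048 (median 3812) in WT and from 4574 to 55164 (median 6445) in KO+AAV. *Col3a1*, the fibrillar chain of pliable tissue, ranged from 1698 to 4631 (median 3223) in WT and from 5069.9 to 25264 (median 7407) in KO+AAV. The upper ends in KO+AAV were all replicate 4. WT minus KO+AAV was -1.42 ± 0.45 (SE), adjusted *P* = 0.0599 for *Col3a1* and -1.498 ± 0.50 (SE), adjusted *P* = 0.0792 for *Col1a1*, so neither passed the test.

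Direct comparison of KO+AAV with KO at 10 weeks called 0 of 36 members by limma, edgeR, or DESeq2, where 0.204% of all genes were called. By limma 10 of 36 members had an unadjusted *P* under 0.05, and so did 1495 of all 16199 genes tested. Further counts of members at an unadjusted *P* are given below without the share over all genes and cannot be weighed against it. Of the 36 members, 32 had a higher estimate in KO+AAV, where 51.9% of all genes did. The family median was 0.52, next to 0.01 over all genes. All 11 fibrillar chains (median 0.74) and all 7 basement membrane chains (median 0.26) were among the 32. Members were measured in the same libraries, so such direction counts are not separate observations. Direction counts below come without the share over all genes. Without KO+AAV replicate 4 the family median was 0.26 and 30 of 36 were higher. It was 0.38 in the Novogene libraries alone and 0.69 in the ICBR libraries alone, the latter including replicate 4.

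The smallest *P* in that comparison belonged to *Col6a6*, an additional type VI chain, which ranged from 36.997 to 115 (median 74.9) in KO and from 68.2 to 259 (median 135) in KO+AAV (log2 difference 1.01 ± 0.36 (SE), adjusted *P* = 0.358). *Col5a1*, a fibrillar chain that sets fibril diameter, ranged from 319.5 to 963 (median 508) and from 659 to 2483 (median 847) (0.79 ± 0.30 (SE), adjusted *P* = 0.392). *Col5a2*, its partner, ranged from 321 to 769 (median 417) and from 522 to 2585 (median 672). The groups overlapped for each of these 3 genes. *Col7a1* and *Col4a2* differed by 0.41 ± 0.27 and 0.14 ± 0.17 (SE), and neither passed the test.

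At 40 weeks more members were called between WT and KO, and so were more of all genes (4.26% higher and 3.74% lower at 10 weeks). *Col24a1*, *Col6a6*, *Col7a1*, *Col9a1*, *Col15a1*, *Col11a2*, *Col28a1*, and *Col6a1* were higher in WT (8 of 36, where 12% of all genes were), and *Col4a2* and *Col4a1* were lower (2 of 36, against 11.5%). The median over members was 0.30, next to 0.01 over all genes, with 0.22 for fibrillar, 0.30 for basement membrane, and 0.75 for other chains. edgeR called 6 members and DESeq2 called 8. As at 10 weeks, the number of calls does not set the family apart from all genes. Without the library labelled KO replicate 2, 5 members were called: *Col7a1*, *Col9a1*, *Col24a1*, *Col6a6*, and *Col4a2*.

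*Col24a1* was counted at 88.96, 90.2, 195, 122, and 109 in WT, at 17.9, 10.7, 36.8, 10.7, and 60.7 in KO, and at 27.1, 16.8, 55.5, 57.98, and 61.1 in KO+AAV. All WT libraries lay above all KO libraries, and the log2 difference was 2.36 ± 0.38 (SE), adjusted *P* = 3.05e-05. *Col6a6* was counted at 102, 108, 60.2, 79.8, and 105 in WT and at 11.01, 8.95, 22.99, 23.2, and 44.1 in KO, also without overlap (2.17 ± 0.41 (SE), adjusted *P* = 0.000198). *Col7a1* was counted at 544, 573, 520.3, 774, and 563 in WT, at 323, 259.7, 205, 225, and 175 in KO, and at 347, 738, 278, 502, and 566 in KO+AAV. Its WT and KO libraries were fully separated (1.34 ± 0.30 (SE), adjusted *P* = 0.00153), and the KO+AAV libraries spanned the gap between them.

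*Col9a1* was counted at 74.1, 40.1, 54.9, 108, and 45.3 in WT and at 11.01, 5.37, 0, 24.98, and 20.7 in KO (2.86 ± 0.72 (SE), adjusted *P* = 0.00373). *Col15a1*, which anchors the basement membrane of fibers and capillaries to the matrix outside, was counted at 507, 465, 464, 407, and 528 in WT and at 119.7, 73.4, 365, 261, and 352 in KO, with no overlap (1.26 ± 0.40 (SE), adjusted *P* = 0.0197). *Col18a1*, its relative, was counted at 169, 159, 159, 133, and 161 and 122, 100.3, 106, 139, and 177 and did not pass the test (0.30 ± 0.27 (SE), adjusted *P* = 0.464). The remaining members higher in WT were *Col11a2* (1.497 ± 0.48 (SE), adjusted *P* = 0.0233), *Col28a1* (1.75 ± 0.60 (SE), adjusted *P* = 0.0313), and *Col6a1* (0.97 ± 0.36 (SE), adjusted *P* = 0.0477).

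*Col4a2* was counted at 1121, 1441, 1267, 1134, and 1293 in WT and at 1971, 2639.8, 2497, 2457, and 2262 in KO, so that every KO library was above every WT library (-0.92 ± 0.20 (SE), adjusted *P* = 0.000833). *Col4a1* was counted at 1446, 1778, 1428, 1364, and 1716 in WT and at 1737, 3781, 2866, 2213, and 2346 in KO, and the lowest KO library was within the WT range (-0.70 ± 0.24 (SE), adjusted *P* = 0.0305). Summed fibroblast markers were 825 to 1106 CPM in 40-week WT muscle and 173 to 448 in KO, with all 7 markers detected in every library, 5 of 7 higher in WT by the test, and a median difference of 1.67. Endothelial markers were 206 to 265 in WT and 212 to 351 in KO, with 2 of 7 lower in WT. The part of either cell type in these collagen differences was not tested.

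In the type VI filament, *Col6a1*, *Col6a2*, and *Col6a3* form the core molecule. *Col6a1* was counted at 762, 629, 573, 571, and 827 in WT and at 188, 251, 497, 416, and 463 in KO, a full separation. *Col6a2* was counted at 632, 692, 627, 547, and 779.972 and 186, 188, 555, 539, and 485, and *Col6a3* at 643, 627, 543, 474, and 716 and 224, 159, 521, 409, and 502. The WT minus KO differences of the latter pair, 0.90 (adjusted *P* = 0.0923) and 0.85 (adjusted *P* = 0.113), did not pass the test. At 10 weeks the 3 chains differed by 0.16, 0.08, and -0.03, and none passed.

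The chief fibrillar chains did not separate WT from KO at 40 weeks. *Col1a1* was counted at 750.2, 649, 644, 569, and 1250.5 in WT and at 594, 625, 1698, 1406, and 1249 in KO, and *Col3a1* at 1463, 1233, 1292, 1066, and 1499 and 395, 1123, 3275, 1629, and 1356, with overlapping groups. Their log2 differences were -0.46 ± 0.57 and 0.04 ± 0.51 (SE). *Col1a2* (0.15 ± 0.57), *Col5a1* (0.54 ± 0.34), and *Col5a2* (0.22 ± 0.35) did not pass the test either.

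Against KO+AAV at 40 weeks, WT muscle was higher in *Col24a1* (1.54 ± 0.38 (SE), adjusted *P* = 0.0067), *Col6a6* (1.26 ± 0.41 (SE), adjusted *P* = 0.0374), and *Col9a1* (2.33 ± 0.72 (SE), adjusted *P* = 0.0275), 3 of 36 members where 6.05% of all genes were higher. It was lower in *Col4a2* (-0.80 ± 0.20 (SE), adjusted *P* = 0.00537), 1 of 36 against 6.41%. *Col4a2* was counted at 2193, 1319, 2573, 2692, and 2435 in KO+AAV, where replicate 2 fell within the WT range. *Col9a1* was counted at 11.2, 9.82, 7.76, 16.8, and 11.99 and was below every WT library. The family median was 0.06, next to 0.00 over all genes. Without KO+AAV replicate 2, 3 members were called and the family median was -0.15, with 12 of 36 higher in WT in place of 21. Leaving out WT replicate 1 or WT replicate 4 left 2 calls each.

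KO+AAV against KO at 40 weeks called 0 of 36 members by limma, edgeR, and DESeq2, where 0.259% of all genes were called, and 5 members had an unadjusted *P* under 0.05. The median was 0.34, next to 0.02 over all genes, and 27 members had a higher estimate in KO+AAV. Without KO replicate 1 the median was 0.13, and without KO+AAV replicate 2 it was 0.70. Without KO replicate 5, 1 member was called. *Col28a1* had the smallest *P* (2.14 ± 0.60 (SE), adjusted *P* = 0.141), followed by *Col7a1* (0.98 ± 0.30 (SE), adjusted *P* = 0.214). *Col28a1*, a collagen found around peripheral nerve, was counted at 12.8, 11.2, 21.1, 22.9, and 23.97 in KO+AAV and at 1.38, 1.79, 0, 7.14, and 23.4 in KO, with overlap through 1 KO library. *Col22a1* was counted at 519, 363, 398, 453, and 356 in WT, at 288, 183, 152, 559, and 214 in KO, and at 534, 331, 299.5, 575, and 476 in KO+AAV muscle, and its KO+AAV minus KO difference was 0.78 ± 0.29 (SE), adjusted *P* = 0.33.

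Between 10 and 40 weeks the estimates of most collagens were lower with age in all 3 groups. In WT muscle 29 of 36 members had a lower estimate at 40 weeks, with a median of -0.36 next to 0.00 over all genes, and limma called 0 members, where 0.148% of all genes were called. Unadjusted *P* was under 0.05 for 7 members, and edgeR and DESeq2 called 0. In KO muscle *Col7a1* rose (1 of 36, against 4.05%) and 9 members fell (of 36, against 4.26%), with a median of -0.74 next to -0.01. In KO+AAV muscle *Col7a1* rose (1 of 36, against 4.67%) and 16 members fell (of 36, against 3.86%), with a median of -1.06 next to -0.02. All 11 fibrillar and all 7 basement membrane chains had lower estimates at 40 weeks both in KO and in KO+AAV muscle.

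These calls rested partly on single libraries and on the site term. Without the library labelled KO replicate 2 at 40 weeks, 3 members were called in KO muscle, *Col7a1* and *Col15a1* among them, and without KO replicate 1, 6 were. Without KO+AAV replicate 2 at 40 weeks, 7 were called in KO+AAV muscle. In the Novogene libraries alone, where both ages were measured at 1 site, 4 members were called in KO and 2 in KO+AAV muscle, and the medians were -0.84 and -0.92.

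In KO muscle the fall was called for *Col15a1* (-1.76 ± 0.41 (SE), adjusted *P* = 0.00822), *Col6a6* (-1.71 ± 0.42 (SE), adjusted *P* = 0.0123), *Col26a1* (-2.22 ± 0.57 (SE), adjusted *P* = 0.0164), *Col5a3* (-0.97 ± 0.28 (SE), adjusted *P* = 0.0276), and *Col22a1* (-1.02 ± 0.30 (SE), adjusted *P* = 0.031), and for *Col6a1*, *Col6a2*, *Col6a3*, and *Col28a1* with log2 differences between -1.98 and -1.19. *Col15a1* ranged from 458 to 1238 (median 624) at 10 weeks, and its 5 counts at 40 weeks, given above, were all lower. *Col7a1*, with 1.32 ± 0.31 (SE), adjusted *P* = 0.0099, also differed between sites in the opposite sense, and its KO libraries of the 2 ages overlapped.

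In KO+AAV muscle the fall was called for the main fibrillar chains too, which were not called with age in WT or KO muscle. *Col1a1* was counted at 1208, 257, 1933, 2457, and 1837 at 40 weeks, against 4011 to 49980 at 10 weeks (-2.45 ± 0.58 (SE), adjusted *P* = 0.00694). *Col1a2* was counted at 1433, 291, 2129, 2997, and 2083 (-2.37 ± 0.58 (SE), adjusted *P* = 0.00885), and *Col3a1* at 1637, 262, 2849.7, 2516, and 3084 (-1.99 ± 0.52 (SE), adjusted *P* = 0.0136). All 40-week libraries lay below all 10-week libraries for these 3 genes. In the counts given above, the ages were likewise fully apart for *Col1a1* and *Col3a1* in WT muscle and for *Col1a1* in KO muscle. *Col5a1* (-1.37), *Col5a2* (-1.20), *Col5a3* (-1.01), and *Col2a1* (-2.36) fell as well. The basement membrane chains *Col4a1* (-1.01 ± 0.24 (SE), adjusted *P* = 0.00761), *Col4a2* (-0.80), *Col15a1* (-1.59), and *Col18a1* (-1.07) fell, as did *Col26a1* (-2.06), *Col6a1* (-1.500 ± 0.36 (SE), adjusted *P* = 0.00831), *Col6a2* (-1.63 ± 0.40 (SE), adjusted *P* = 0.00831), *Col6a3* (-1.52), and *Col6a6* (-1.81 ± 0.41 (SE), adjusted *P* = 0.0056). *Col7a1* rose (1.89 ± 0.31 (SE), adjusted *P* = 0.000161).

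**Figure D4:**
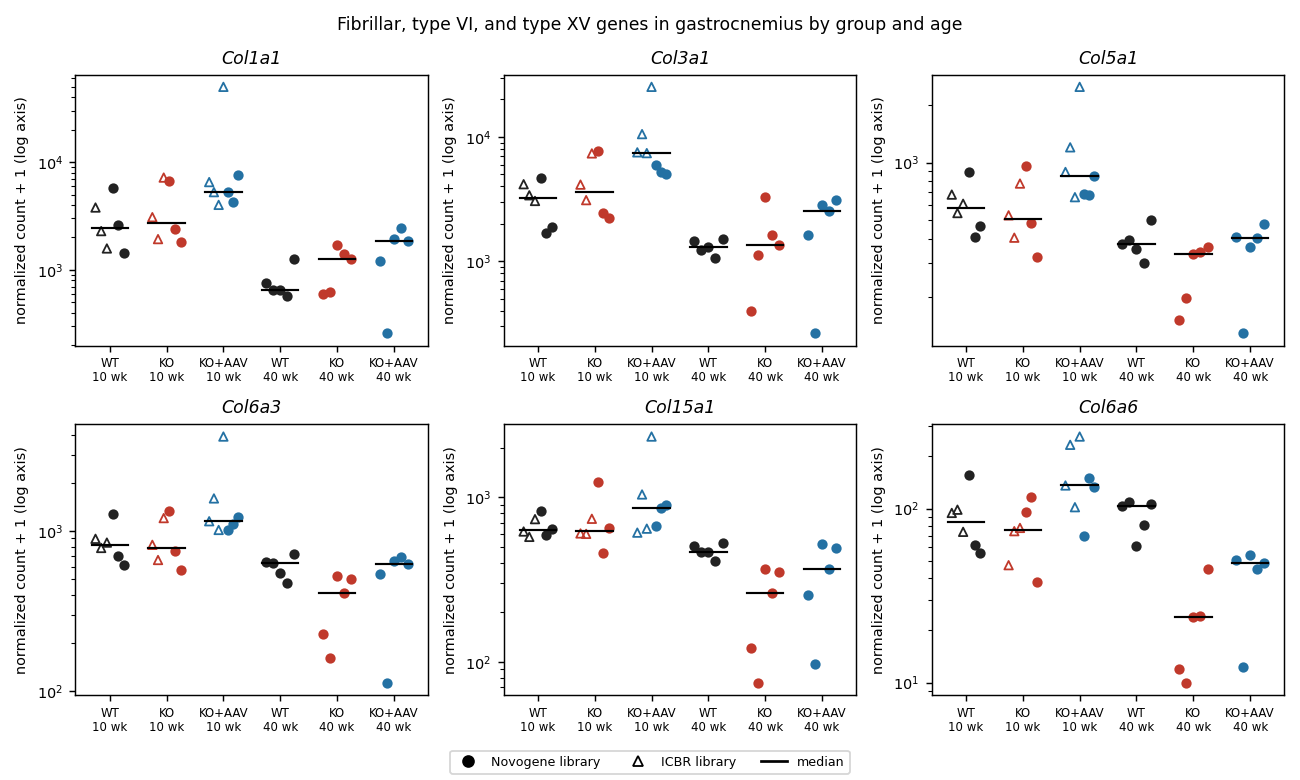
Normalized count plus 1 per library (log axis) of *Col1a1*, *Col3a1*, *Col5a1*, *Col6a3*, *Col15a1*, and *Col6a6* in WT, KO, and KO+AAV gastrocnemius at 10 and 40 weeks, with a line at each median. Replicate 4 of the 10-week KO+AAV group lies far above the rest in all panels but that of *Col6a6* (49980 for *Col1a1*), and replicate 2 of the 40-week KO+AAV group lies lowest of its group in each panel.

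Whether the age difference itself differed between groups was tested with interaction terms. For WT minus KO limma called 0 of 36 members, where 0.37% of all genes were called, edgeR and DESeq2 called 0, and 7 members had an unadjusted *P* under 0.05. The smallest belonged to *Col6a6* (1.89 ± 0.55 (SE), adjusted *P* = 0.12). The family median was 0.36, with 23 members above 0. For KO+AAV minus KO limma called 0 of 36 against 0.00617% of all genes, edgeR and DESeq2 called 0, and only *Col28a1* had an unadjusted *P* under 0.05 (2.25 ± 0.80 (SE), adjusted *P* = 0.895). The age difference in KO+AAV against that in WT was not tested.

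The GFP experiment measured the family in KO muscle that received a vector without *Bmal1*. *Col14a1* and *Col5a2* were higher in KO+GFP than in control KO muscle (2 of 35 members tested, where 1.83% of all genes were higher), and 0 were lower (against 1.26%). edgeR and DESeq2 each called 2, and 10 members had an unadjusted *P* under 0.05. The median was 0.46, next to 0.00 over all genes, and 31 of 35 members had a higher estimate in KO+GFP. Fibrillar chains had a median of 0.51, with 10 of 11 higher.

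*Col14a1*, a FACIT chain that regulates fibril growth, was counted at 47.3, 78.5, and 66.97 in KO+GFP and at 30.8, 23.9, and 20.7 in controls (1.31 ± 0.25 (SE), adjusted *P* = 0.0154). *Col5a2* was counted at 265, 461, and 330.5 and at 137, 199, and 182 (1.002 ± 0.19 (SE), adjusted *P* = 0.0154). For both genes the 3 KO+GFP libraries lay above the 3 controls. *Col7a1* was counted at 48.4, 72.7, and 35.2 in KO+GFP and at 29.8, 67.1, and 65.3 in controls and did not pass the test (log2 difference -0.02 ± 0.33). *Col1a1* was counted at 1866, 3523, and 2563 and at 839.8, 1557, and 4272, with overlap.

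Fibroblast and macrophage markers also differed between the groups of this experiment. Fibroblast markers summed to 649 to 759 CPM in KO+GFP and 385 to 413 in controls, with 5 of 7 higher by the test, and macrophage markers to 47.7 to 63.9 and 21.1 to 26.8, with 4 of 6 higher. Their part in the collagen values was not tested. Leaving out KO+GFP replicate 3 left 0 calls, leaving out KO+GFP replicate 2 left 1, and leaving out KO+GFP replicate 1 or control replicate 3 gave 4 or 7.

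Whether the muscle vector was accompanied by collagen changes in other tissues was tested in KO+AAV against KO at 40 weeks. In lung limma called 0 of 39 members, where 0.0237% of all genes were called. Unadjusted *P* was under 0.05 for 5, edgeR called 0, and DESeq2 called 3. Those 3 were *Col12a1*, *Col4a5*, and *Col4a3*, with limma differences of -0.57, -0.34, and -0.57. They were lower in KO+AAV lung. The share of all genes called by DESeq2 in lung is not given here, so these 3 calls cannot be weighed against it. The family median was -0.03, and 7 of 8 basement membrane chains had a lower estimate, with a median of -0.19. Airway basal cell and gland markers summed to 758 to 2188 CPM in KO+AAV lungs and 7.93 to 113 in KO lungs, and atrial cardiomyocyte markers to 398 to 1476 and 12.1 to 294. Their part in the lung values was not tested.

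In heart limma called 0 of 33 members (0% of all genes), with 0 at an unadjusted *P* under 0.05 and 0 by edgeR and DESeq2. The median was 0.17, and -0.08 without KO replicate 2, the library with hepatocyte markers. In liver limma called 0 of 33 members (0% of all genes), edgeR and DESeq2 called 0, and 2 had an unadjusted *P* under 0.05, *Col9a1* (-2.21) and *Col5a3* (0.30). *Col18a1*, the main collagen of liver, was counted at 53738, 41485, 48556, and 51903 in KO and at 51606, 49948, 52371, and 46490.2 in KO+AAV, a log2 difference of 0.04 ± 0.11 (SE).

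In white fat limma called 0 of 39 members (0% of all genes), with 0 at an unadjusted *P* under 0.05 and 0 by edgeR and DESeq2, and the median was -0.14. *Col5a3*, the leading fat collagen, was counted at 96415, 11530.2, 56175, and 90186 in KO and at 87276, 20305, 106691, and 114911 in KO+AAV. *Col6a4* was counted at 10.8, 19798, 46.1, and 6.47 in KO and at 5.79, 18.4, 8.13, and 14.9 in KO+AAV fat. The value of KO replicate 2, the library with epididymis markers, stood far above all others for *Col6a4*.

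The genes that make, fold, bind, and break down collagen were taken as 8 lists, with at most 3 genes named for each list and comparison. The breakdown list also holds *Timp* genes, which inhibit matrix proteases, and the procollagen protease list holds *Pcolce*, a protease enhancer. A count over a list therefore gives no direction of activity. At 10 weeks few genes of the 8 lists separated WT from KO, where 4.26% of all genes were higher in WT and 3.74% lower. *Podn*, a small proteoglycan that binds fibrils, was higher in WT (1.93 ± 0.32, adjusted *P* = 7.2e-05) as 1 of 10 fibril-binding proteoglycans. *Lamb2*, the laminin chain of the neuromuscular and capillary sheet, was lower (-0.60 ± 0.12, adjusted *P* = 0.000677) as 1 of 10 basement membrane partners. *Tmem38b* and *Mia3*, which serve procollagen folding and export, were higher (0.40 and 0.39) as 2 of 19 modification and folding genes tested. *Ddr1*, a collagen receptor, was higher (0.38), and *Tgfb3*, a matrix inducer, was lower (-0.45). None of 12 breakdown genes, 5 lysyl oxidases, or 7 procollagen proteases tested was called.

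Against KO+AAV at 10 weeks, 2.21% of all genes were lower in WT muscle and 2.94% higher. WT muscle was lower in 3 of 12 genes of the breakdown list, the membrane collagenase *Mmp14* (-1.41 ± 0.26, adjusted *P* = 0.000761), the protease inhibitor *Timp1* (-2.47), and *Mmp3* (-2.27). It was also lower in the lysyl oxidase *Loxl2* (-1.04), in *Lamb2* (-0.63), and in *Sparc* (-0.96), a collagen chaperone of the matricellular list, and higher in *Podn* (1.32) and *Mia3* (0.39).

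At 40 weeks 12% of all genes were higher in WT than in KO and 11.5% lower. Of 10 fibril-binding proteoglycans 4 were higher in WT, with a list median of 0.95, led by *Podn* (2.16 ± 0.35, adjusted *P* = 2.55e-05), *Dcn* (1.51 ± 0.32, adjusted *P* = 0.000701), and *Prelp* (1.11). Basement membrane partners were mixed, with 4 higher in WT, among them *Lama4* (1.17) and *Nid1* (0.87), and 1 lower, *Lamb2* (-0.44). Among 8 receptors tested 3 were higher, *Ddr1* (0.61) and *Itga11* (1.69) among them, and 1 was lower, *Itga10* (-1.53). Of 12 breakdown genes 2 were higher, with *Timp2* (1.004) first, and 2 were lower, *Timp4* (-0.87) and *Mmp3* (-2.56). *Bmp1* (0.94), which trims procollagen, and *Pcolce2* (1.54), an enhancer of that step, were higher. *P3h2* and *Loxl4*, which modify collagen chains, were lower in WT (-1.95 and -2.28). Of 11 matricellular genes tested 3 were lower, *Postn* (-1.998) and *Lgals3* (-2.09) among them, and *Tgfb2* was higher (0.43).

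In WT against KO+AAV at 40 weeks, 6.05% of all genes were higher in WT and 6.41% lower. Of 10 proteoglycans 2 were higher in WT, *Podn* (2.18) and *Dcn* (1.18). Of the breakdown genes *Timp2* was higher (0.69) and 3 were lower, with *Mmp3* (-2.60) and *Timp1* (-2.37) first. Basement membrane partners had 1 call in each direction, receptors 1 higher and 2 lower, and modification genes and procollagen proteases 1 higher each. No gene of the 8 lists was called between KO+AAV and KO at either age, between ages in WT, in either interaction, or in the other tissues.

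With age, 4.26% of all genes fell and 4.05% rose in KO muscle, and 3.86% fell and 4.67% rose in KO+AAV muscle. Of 19 modification and folding genes 4 fell in KO muscle, led by *Plod1* (-0.59) and *P3h3* (-1.02), and 1 rose, *P4ha2* (0.46). In KO+AAV muscle 6 of 19 fell, led by *Colgalt2* (-1.28) and *Ppib* (-0.62), and *Tmem38b* rose. *Serpinh1*, the collagen-specific chaperone, named for its role after its values were seen, fell in KO+AAV (-1.01 ± 0.28, adjusted *P* = 0.0203). Also in KO+AAV muscle 4 of 12 genes of the breakdown list and 3 of 7 of the procollagen protease list fell, the latter *Adamts3*, *Bmp1*, and *Pcolce* (-2.08, -0.97, and -1.22). The proteoglycan *Kera* fell in KO (-3.79) and KO+AAV (-3.33), and *Sparc* differed by -1.14 and -1.42. Basement membrane partners had 2 falls in KO+AAV muscle, receptors 1 in KO and 2 in KO+AAV, and lysyl oxidases 1 in KO+AAV. In KO+GFP muscle *Dcn* (0.85 ± 0.09, adjusted *P* = 0.000754), *Lum* (1.17), *Nid1* (0.61), *Lama2* (0.68), *Mmp9* (1.92), *Timp4* (0.51), and *Fn1* (0.87) were higher.

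**Figure D5:**
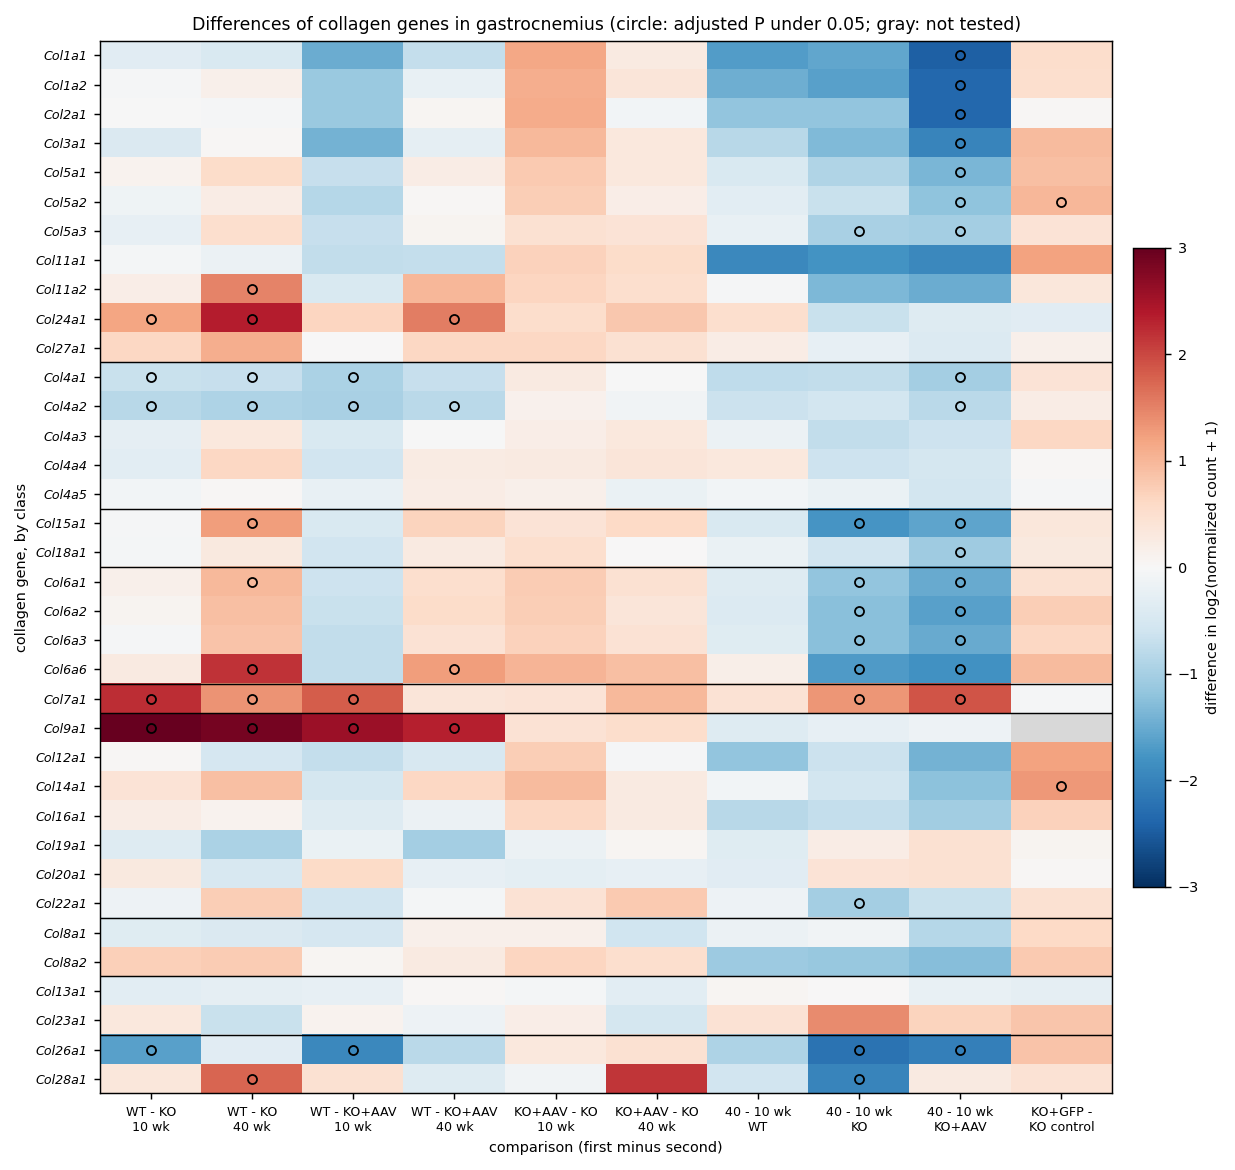
Log2 differences (color) of the 36 collagen genes tested in gastrocnemius (rows, by type) in 10 gastrocnemius comparisons (columns), with circles on differences that passed an adjusted *P* of 0.05 and gray where a gene was not tested. The circles gather in *Col7a1*, *Col9a1*, *Col24a1*, *Col4a1*, and *Col4a2* between WT and the KO groups and in fibrillar, type IV, and type VI chains between ages in KO+AAV muscle.

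*Col9a1* was the FACIT chain called at 10 weeks, and the 4 FACIT and transmembrane chains given here were not called. *Col12a1*, a FACIT chain of tendon and muscle sheaths, ranged from 84.8 to 332 (median 159) in WT, from 68.4 to 279 (median 157) in KO, and from 99.9 to 1629 (median 209.8) in KO+AAV. *Col14a1* ranged from 62.1 to 174 (median 99.4), from 28.6 to 151 (median 75.98), and from 84.7 to 489 (median 141). *Col22a1* ranged from 366 to 595 (median 499), from 395 to 781 (median 519), and from 387 to 1794 (median 666). *Col13a1* ranged from 13.6 to 40.2 (median 19.5), from 17.7 to 35.3 (median 27.01), and from 15.4 to 69.2 (median 21.7). These 4 genes overlapped between groups, and none of the 4 passed the test between WT, KO, and KO+AAV at this age. In 40-week muscle *Col13a1* was counted at 25.2, 26.3, 15.9, 42.2, and 10.9 in WT and 34.4, 26.9, 19.9, 30.3, and 23.4 in KO, and *Col12a1* at 78.6, 61.4, 67.3, 35.97, and 148 and 83.9, 89.5, 104, 127, and 106, again with overlap.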

How the data were processed

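Poly(A) RNA-Seq libraries of mouse tissue (72) were analyzed from tables in which the authors had aligned reads to GRCm38 (mm10) with HISAT2, counted them per gene with HTSeq, and divided the counts by 1 DESeq2 size factor per library. The deposited values are thus a signal, the normalized count. The annotation release and the strand setting are not given in the sources used here. Every value times its size factor was whole within 0.01 read (100% of values), so reads were recovered for count models.

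Genes with a mean normalized count above 5 were tested as log2(normalized count + 1) with limma 3.58.1 (trend) in R 4.3.3. One fit held all 34 gastrocnemius libraries of the main experiment with a group and a site term; the GFP experiment and each tissue had fits of their own. Fold changes on this scale understate the change of low genes. An adjusted *P* (Benjamini-Hochberg, all genes tested) under 0.05 was called. edgeR 4.0.16 and DESeq2 1.42.0 were run on recovered reads as alternatives (in WT against KO at 10 weeks they called 1335 and 1674 genes, limma 1296). Their other counts of called members are given without the share over all genes and cannot be weighed against it. Levels between genes are RPKM values over union exons (GENCODE vM21, GRCm38). The limma scripts were tested on simulated data.

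Named genes were 17 fixed members, up to 5 called members per direction and comparison with the smallest *P*, and up to 3 called genes per list, plus *Arntl*; the longer lists of called members, *Col2a1*, *Col5a3*, *Col6a4*, and the tissue-leading members were named after their values were seen. Members and lists were chosen with earlier results of these data known.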

Additional observations from a re-analysis of the deposited data

Results flagged for a closer look

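Of 82 pairs of a member and a group of 4 to 10 libraries, 19 held a library whose gap to its neighbor was large against the range of its group (Dixon's 95% value), where chance would give about 1 in 20. KO+AAV replicate 4 at 10 weeks, the library with the highest tendon and fibroblast markers of its group, accounted for 14. In it *Col1a1* was counted at 49980 (other libraries 4011 to 7649), *Col1a2* at 55164 (4574 to 8364), *Col3a1* at 25264 (5070 to 10531), *Col2a1* at 223 (5.97 to 23.8), *Col5a1* at 2483, *Col5a2* at 2585, and *Col5a3* at 3121. *Col4a1* was counted there at 11135 (3607 to 5169), *Col4a2* at 8427 (2888 to 3659), *Col15a1* at 2340, *Col18a1* at 613, *Col6a1* at 3943, *Col6a2* at 3879, and *Col6a3* at 3906.

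KO+AAV replicate 2 at 40 weeks, lowest of its group in fibroblast markers, was low for *Col6a2* at 135 (524 to 655 in the others), *Col6a3* at 111 (537 to 691), and *Col6a6* at 11.2 (44.3 to 53.2). *Col7a1* was high in WT replicate 4 at 40 weeks, at 774 (520 to 573). *Col15a1* was high in KO replicate 5 at 10 weeks, at 1238 (458 to 740). The part of tissue content in these values was not tested.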

How the results depend on the processing

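No call of a single gene changed direction, but the family median changed sign in 15 of 249 alternatives, in 7 of 16 comparisons. It went from 0.06 to -0.15 in WT against KO+AAV at 40 weeks without KO+AAV replicate 2, from -0.25 to 0.03 without that library and 0.01 without KO+AAV replicate 4 at 10 weeks in the interaction of KO+AAV and KO with age, from 0.17 to -0.08 in heart without KO replicate 2, from -0.14 to 0.10 in white fat without KO replicate 3, and from -0.03 to 0.04 in WT against KO at 10 weeks in Novogene libraries alone. Lung (-0.03) ranged from -0.12 to 0.06 and liver (0.04) from -0.13 to 0.18. Counts of called collagens moved by more than 1.5 times as follows. WT against KO at 10 weeks (6) gave 3 with no filter, 3 with no site term, 2 in Novogene libraries alone, and 1 in ICBR libraries alone. WT against KO+AAV at 10 weeks (5) gave 3 with a filter at 50, 8 with edgeR, 10 with DESeq2, 1 in Novogene and 2 in ICBR libraries alone. WT against KO at 40 weeks (10) gave 6 with edgeR and 5 to 12 with 1 library left out. WT against KO+AAV at 40 weeks (4) gave 2 with no filter and 2 to 4 with 1 library left out. KO+AAV against KO at 40 weeks (0) gave 0 to 1. The age comparison in KO (10) gave 4 with no filter, 6 with edgeR, 16 with no site term, 4 in Novogene libraries alone, and 3 to 12 with 1 library left out. In KO+AAV (17) it gave 2 in Novogene libraries alone and 7 to 18. KO+GFP against control (2) gave 4 with no filter, 1 with a filter at 50, and 0 to 7. Lung (0) gave 3 with DESeq2 and 0 to 1. The interaction of WT and KO with age (0) gave 0 to 1. The causes were not tested; leaving out libraries also lowers the number compared.

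Replicate numbers are shared between groups, but deviations of same-numbered libraries did not correlate above 0.1 in every pair of any comparison. The numbers were thus not used as pairs in the main tests, but this rule does not settle whether they pair the samples. In the GFP experiment 3 of 3 pairs correlated best with their own number, at 0.02 to 0.07. Between KO and KO+AAV gastrocnemius 3 of 5 did at 40 weeks and 0 of 6 at 10 weeks. With a replicate block 8 members were called in WT against KO+AAV at 10 weeks, 8 in the GFP experiment, and 0 in the age comparisons of KO and KO+AAV.

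The fibrillar share depended on gene length. It was 25.3% in lung with the longest transcript and 24.1% without length correction, 26.8% and 25.8% in heart, and 40.7% and 41.9% in white fat. In 40-week gastrocnemius, a choice made after seeing the data, it was 35.6%, in place of 43.9% over both ages. Of the single-gene calls 21 of 52 stayed called in Novogene libraries alone, 3 of 11 in ICBR libraries alone, 27 of 54 with a replicate block, 38 of 54 with no filter, 44 of 54 with edgeR, 51 of 54 with DESeq2, 47 of 52 with no site term, and 269 of 331 with 1 library left out. All 42 stayed with a filter at 50, and 53 of 54 with each of the other pseudocount and TMM. Leaving out KO+AAV replicates 4 or 5 at 10 weeks, and KO heart replicates 2 and 4 together, was chosen after seeing the data. The GFP libraries, the shallowest, limit the precision of chains with few reads.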
